A study of Mus musculus with 4 samples.

Results

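The SoxE genes Sox8, Sox9 and Sox10 and the SoxD genes Sox5, Sox6 and Sox13 were examined in the frontonasal prominence (FNP), the facial bud that forms the nose and snout, of Smchd1 wild-type and MommeD43 mouse embryos. They were chosen by name as the members of these gene families and not by their values, though earlier results of these data were known. All 6 were found among the 33708 autosomal rows of the deposited table. Stranded mRNA was sequenced from 4 embryos of the FVB/NJ strain at E10.5, all with 29 somites. There were 2 Smchd1+/+ embryos (WT, 1 female and 1 male) and 2 Smchd1MommeD43/MommeD43 embryos (MD43, 2 males). MommeD43 is a chemically induced missense allele of Smchd1, a chromatin protein with a role in gene silencing, and its homozygotes are viable and fertile. WT replicate 2 and MD43 replicate 2 had the same mother, while the sex of WT replicate 2 differs between records of the study (male or female), so that sex and genotype cannot be told apart. The question was which transcripts differ in this tissue when SMCHD1 carries the mutation.

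SOX proteins bind DNA through a domain called the HMG box. SOX9 is needed to form cartilage and acts earlier in the neural crest, the migratory cells that build most of the facial skeleton. SOX10 keeps crest cells multipotent and then directs the formation of glia and pigment cells, and SOX8 overlaps with both. The SoxD proteins lack an activation domain of their own. SOX5 and SOX6 work beside SOX9 on cartilage genes such as Col2a1, and the FNP at this stage holds crest mesenchyme that has not yet formed cartilage.

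The table gives 1 value per genotype, in log2 RPKM (reads scaled to transcript length and library size, on a log2 scale), which is the mean over 2 libraries. These merged values allow no replicate test, and values of single libraries given elsewhere by the study are not used here, so no p-value is given. In place of a test, 3 measures of error are used. Reads are the geometric mean of the 2 libraries, recovered from the values, and the counting SE is the smallest standard error of a log2 difference that these reads allow. The library spread is the expected SD of a difference between genotypes, and it follows from how far the 2 libraries of a genotype lay apart in other rows of like reads. The counting SE leaves out variation between embryos. Of the 15377 rows with at least 10 reads in a genotype, 7628 differed by more than 2 counting SEs, so passing it does not set a gene apart. The implied depth was 22328791 reads in MD43 and 16055882 in WT (geometric mean of 2 libraries). Smchd1 itself had 3.30 log2 RPKM in MD43 and 3.31 in WT, a difference of -0.01 ± 0.02 (counting SE), so its RNA level does not check the genotype labels of a missense allele.

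Among the members, 5 were well counted, with at least 162 reads in each genotype, and Sox10 was close to the limit of detection. Sox9 was the highest, with 22.5 RPKM in WT and 19.8 in MD43, with a mean level above 83.6% of the rows with at least 10 reads in a genotype. Sox13 followed with 12.7 and 14.3 RPKM, then Sox6 with 5.17 and 5.75, Sox8 with 3.24 and 4.28, and Sox5 with 2.70 and 2.78. The mean levels of Sox8 and Sox5 were above only 42.9% and 36.8% of the rows with at least 10 reads in a genotype. RPKM values are scaled to the joined length of all annotated exons of a gene. This was 14376 bases for Sox5 and 14832 for Sox6, against 3051 to 4312 for the other members. Where transcripts use only part of these exons the level is understated, so the comparison between genes is approximate. Sox10 lay far below, with 0.221 RPKM in WT and 0.0917 in MD43. The order was the same in both genotypes. In WT the step from Sox8 to Sox5 was the smallest, 1.2-fold (0.26 on the log2 scale). This was below the 0.27 expected as 1 SD of such a gap from the spread between WT libraries. These neighbours thus did not differ in WT beyond that spread. In MD43 the step from Sox8 to Sox5 was 0.62, against 0.19, and the smallest step was that from Sox6 to Sox8, at 0.42. The step from Sox5 to Sox10 was 12.2-fold in WT and 30.3-fold in MD43. Summed over its 3 genes, SoxE gave 26 RPKM in WT and 24.2 in MD43, of which Sox9 made up 86.7% and 81.9%. SoxD gave 20.6 and 22.9 RPKM.

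**Figure D1:**
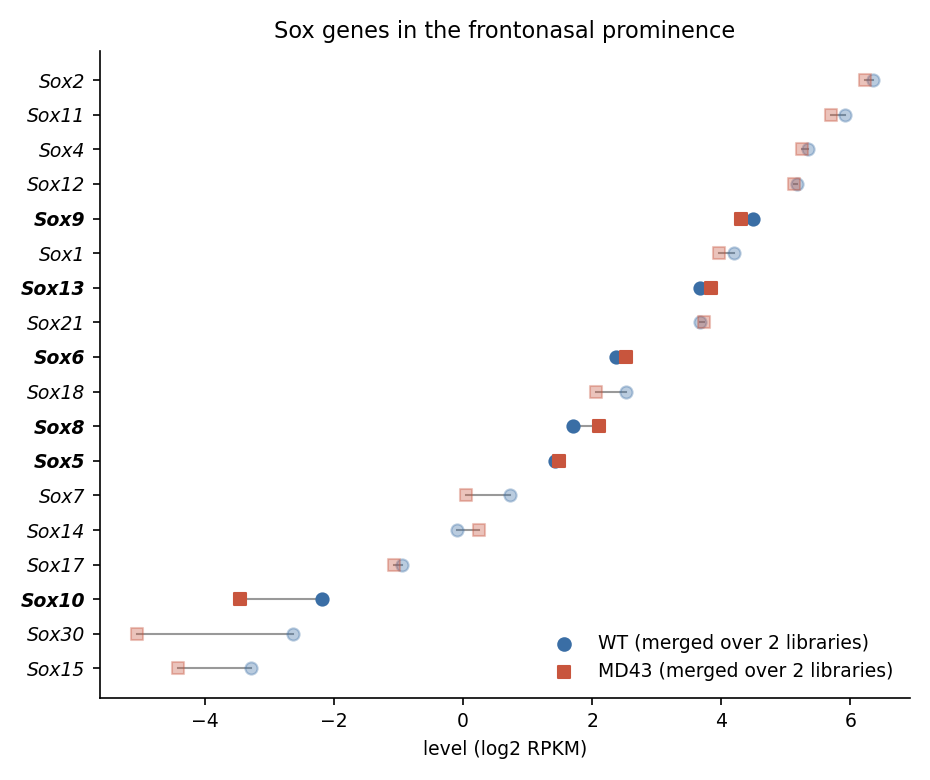
Level of the 6 members (bold) and of 12 other autosomal Sox genes (pale) in log2 RPKM on the x axis, with a circle for WT and a square for MD43, each the authors' value merged over 2 libraries. The other 5 members lie between Sox5 at 1.43 and Sox9 at 4.49 log2 RPKM in WT, while Sox10 lies at -2.18 with Sox15 and Sox30 at the bottom, where few reads were counted.

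Most members differed little between genotypes, and only Sox10 passed 2-fold. Over the 15377 rows whose reads reached 10 in a genotype, MD43 was lower by 2-fold or more in 2.47% and higher in 1.64%, or 4.11% in either direction. Among the 6 members 1 was lower by 2-fold or more and 0 were higher. At 1.5-fold the member counts were the same 1 and 0, against 6.43% of rows lower and 4.24% higher. With a minimum of 50 reads, where 1.26% of rows passed 2-fold in either direction, 0 members did. The central 50% of the rows with at least 10 reads lay between -0.16 and 0.15 on the log2 scale. Sox5 and Sox6 lay within this range, and Sox9 and Sox13 just outside it.

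**Figure D2:**
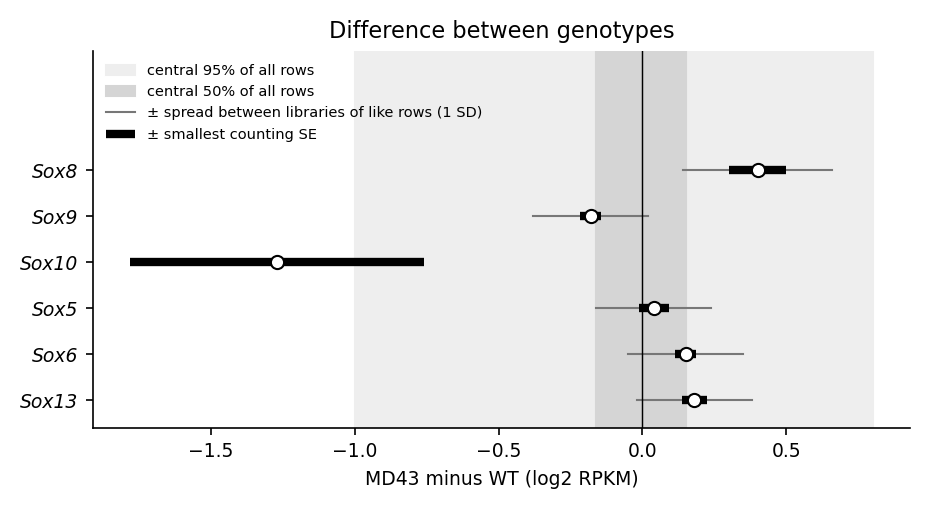
Difference between genotypes (MD43 minus WT, log2 RPKM, x axis) for each member, with the smallest counting SE as a thick bar and the library spread (1 SD) as a thin bar, over the central 50% (dark grey) and 95% (light grey) of the rows with at least 10 reads in a genotype. Sox8 at 0.40 and Sox10 at -1.27 stand farthest from 0, and Sox10 has no thin bar because its reads were too few to estimate one.

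Sox9, the regulator of cartilage and crest, was slightly lower in MD43. Its level was 4.49 log2 RPKM in WT (1494 reads) and 4.31 in MD43 (1829 reads). The difference was -0.18 ± 0.036 (counting SE), or 1.14-fold lower, which exceeded the counting SE but not the library spread of 0.20. Of the 500 rows nearest in reads, 27.2% differed by as much in either direction. The reads of the single libraries could be narrowed further. In the WT value, 1284 and 1739 reads were the only pair of whole numbers within 4-fold of each other that gave the recovered product. Scaled to the estimated depths of 13146871 and 19608569 reads, with the larger count in the deeper library, they gave 4.56 and 4.42 log2 RPKM. In MD43, 4 pairs were possible. The pair nearest to the depth ratio of 1.53 was 1461 and 2289 reads, with 4.29 and 4.32 log2 RPKM, and the next was 1501 and 2228 reads, with 4.33 and 4.28. Under these pairs both MD43 libraries lay below both WT libraries, whereas under the other pairs, such as 1114 and 3002 reads, the genotypes overlapped. The pair nearest to the depth ratio is the one that puts both libraries of a genotype closest together, so choosing it favours separation. Over all assignments of counts to libraries, 2 of 16 combinations separated the genotypes. Which pair is the true one cannot be told from the table.

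Sox8, which overlaps with Sox9 and Sox10 in the crest, was higher in MD43. Its level was 1.70 log2 RPKM in WT (162 reads) and 2.10 in MD43 (298 reads). The difference of 0.40 ± 0.10 (counting SE), or 1.32-fold, was 1.5 times the library spread of 0.26, and 12.6% of the 500 rows nearest in reads differed by as much. The possible MD43 pairs were 273 and 326, 182 and 489, or 163 and 546 reads. The possible WT pairs were 153 and 172, 129 and 204, 102 and 258, or 86 and 306 reads. With the pairs nearest to the depth ratios and the larger count in the deeper library, the MD43 libraries were at 2.28 and 1.92 log2 RPKM and the WT libraries at 1.65 and 1.74, and the genotypes did not overlap. As for Sox9, choosing these pairs favours separation. With the larger count in the deeper library, 2 of the 12 combinations of pairs separated the genotypes, and over all assignments of counts to libraries 2 of 48 did.

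Sox10, the regulator of crest glia and pigment cells, was lower in MD43 on very few reads. Its level was -2.18 log2 RPKM in WT (10.8 reads) and -3.45 in MD43 (6.24 reads), a difference of -1.27 ± 0.51 (counting SE), or 2.41-fold lower. With a pseudocount of 0.1 or 1 RPKM the difference was -0.74 or -0.16, and neither passed 2-fold. Sox10 passed the minimum of 10 reads through WT alone, which favours a lower MD43 value. Of the 500 rows nearest in reads, 22.0% differed by as much. The read products were 39 in MD43 and 117 in WT, small enough to list every split. The MD43 libraries held 3 and 13 reads, or 1 and 39. The WT libraries held 9 and 13 reads, 3 and 39, 1 and 117, or 0 and 130. Under every split of the MD43 product 1 library had at most 3 reads. In the most even splits the WT libraries had -2.16 and -2.20 log2 RPKM and the MD43 libraries -4.20 and -2.70, with the larger count in the deeper library. The MD43 library of 13 reads then lay nearer to WT than the library of 3 reads, and this was the 1 combination of 8 in which the genotypes did not overlap.

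**Figure D3:**
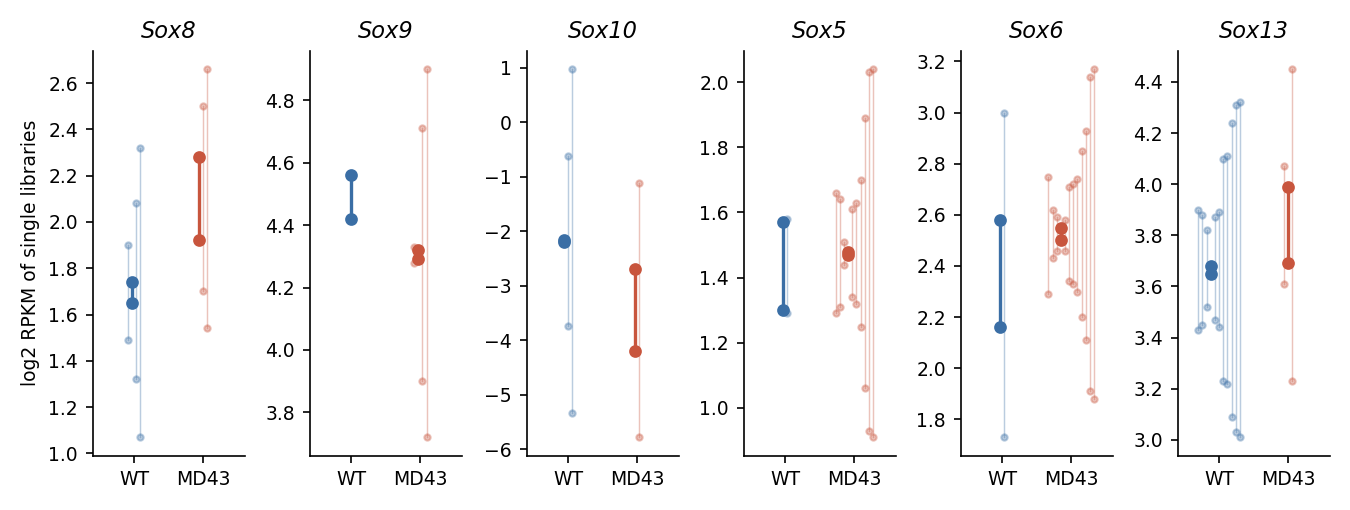
Possible log2 RPKM values of the single libraries (y axis, a separate scale for each gene) of WT (blue) and MD43 (red) for each member, where each line joins the 2 libraries of 1 possible pair of counts with the larger count in the deeper library. The strong line is the pair nearest to the depth ratio, and pale lines are other pairs. With the strong pairs the genotypes overlap for Sox5 and Sox6 and not for Sox8, Sox9, Sox10 and, by a narrow gap, Sox13. Strong pairs put both libraries of a genotype closest together, which favours separation. The share of all rows that separate in this way was not determined, so no difference between genotypes is read from it. The split of Sox10 with a library at 0 reads is not drawn.

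The SoxD genes, partners of Sox9 in cartilage, differed little between genotypes. Sox13, which is also known for its part in T cell and neural development, had 3.67 log2 RPKM in WT (879 reads) and 3.84 in MD43 (1380 reads). Its difference was 0.18 ± 0.044 (counting SE). Sox6 had 2.37 log2 RPKM in WT (1230 reads) and 2.52 in MD43 (1904 reads), with a difference of 0.15 ± 0.037. Sox5 had 1.43 log2 RPKM in WT (624 reads) and 1.48 in MD43 (893 reads), with a difference of 0.04 ± 0.053. None of these exceeded the library spread of 0.20, and 29.6%, 33.2% and 77.4% of the 500 rows nearest in reads differed by as much as Sox13, Sox6 and Sox5. No possible pairs of counts separated the genotypes for Sox5 or Sox6. With the pairs nearest to the depth ratio, the Sox6 libraries were at 2.55 and 2.50 log2 RPKM in MD43 and at 2.58 and 2.16 in WT. For Sox13, 1 of 33 combinations did, with 3.99 and 3.69 log2 RPKM in MD43 against 3.68 and 3.65 in WT. That separation was lost, at 0 of 33, when the depth ratio was taken from rows of up to 700 reads. Sox6 and Sox13 were thus higher and Sox9 lower in MD43 only by amounts within the library spread, and Sox5 did not differ beyond its counting SE.

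The 12 other Sox genes of the autosomes give a scale for these differences. Of the 10 that reached 10 reads in a genotype, 8 were lower and 2 higher in MD43, with a median difference of -0.13, against 0.01 over all rows with such reads. Sox7 had the lowest difference among them at -0.68 ± 0.16 and Sox18 followed at -0.46 ± 0.12, both genes of blood vessel walls. The highest was Sox14 at 0.33 ± 0.23. None passed 2-fold.

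The members differ in how their genes are laid out. All 6 are protein coding. Sox9 (ENSMUSG00000000567) occupies chr11:112782224-112787760 on the plus strand of GRCm38. The other members lie on the minus strand, Sox8 (ENSMUSG00000024176) at chr17:25565892-25570686, Sox10 (ENSMUSG00000033006) at chr15:79154908-79165240, Sox5 (ENSMUSG00000041540) at chr6:143828425-144781977, Sox6 (ENSMUSG00000051910) at chr7:115470872-116038796 and Sox13 (ENSMUSG00000070643) at chr1:133382303-133424377. Sox5 and Sox6 span 954 and 568 kb, whereas the SoxE genes span 4.79 to 10.3 kb. Within 50 kb of a member or overlapping one lay 26 further rows, of which 8 had at least 10 reads in a genotype. Inside Sox5, 7 rows were listed, none of them annotated as protein coding. The one with the most reads was the antisense Sox5os1, at 4.9 reads in WT and 6.63 in MD43. Sox6os, an antisense RNA within Sox6, had 3.16 and 3 reads. The introns of both large genes carried almost no counted antisense RNA.

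Sox8 and Sox6 had transcribed neighbours at their starts. The antisense gene 2810468N07Rik (chr17:25570358-25575043, plus strand) overlaps the first 329 bp of Sox8 and had 0.92 log2 RPKM in WT (64.3 reads) and 1.20 in MD43 (109 reads). Its difference of 0.28 ± 0.16 had the same sign as that of Sox8. The use of strand in the counting is not stated, so reads of the overlap may be shared between them. The protein-coding gene 1110004F10Rik begins 601 bp from Sox6 on the opposite strand and was far more abundant, with 6.13 log2 RPKM in MD43 and 6.11 in WT. Its difference was 0.02 ± 0.03, against 0.15 for Sox6. The 250 bases before the RefSeq start of each gene (GRCm38.p6) are shown for these 2 divergent starts, 5′ to 3′ on the minus strand with CpG dinucleotides in capitals. The Sox8 window is chr17:25570687-25570936 and the Sox6 window is chr7:116038745-116038994.

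Sox8: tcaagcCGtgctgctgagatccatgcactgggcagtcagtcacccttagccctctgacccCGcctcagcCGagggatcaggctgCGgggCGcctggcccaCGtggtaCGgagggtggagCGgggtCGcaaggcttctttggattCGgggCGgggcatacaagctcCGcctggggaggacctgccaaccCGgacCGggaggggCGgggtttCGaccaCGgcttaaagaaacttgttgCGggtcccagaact
Sox6: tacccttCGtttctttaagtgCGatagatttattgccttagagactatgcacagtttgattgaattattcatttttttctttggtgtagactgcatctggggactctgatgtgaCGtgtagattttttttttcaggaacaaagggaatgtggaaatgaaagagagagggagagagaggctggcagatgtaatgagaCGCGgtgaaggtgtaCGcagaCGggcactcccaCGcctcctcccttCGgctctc

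The Sox8 window held 18 CpG and the Sox6 window 9, against a median of 6 over 31396 such windows of autosomal genes. The window of Sox13 held 31 CpG, more than 94.6% of windows. That of Sox5, at an internal start 834871 bp inside the annotated 5′ end of the gene, held 3. The 6 letters AACAAT, which SOX proteins can bind, were searched on both strands (ATTGTT on the other) and occurred in neither printed window and in 9.26% of all windows. RefSeq gives 6 starts for Sox6, of which the outermost is printed, and 1 of the other 5 windows (chr7:115824711-115824960) held 2 matches. RefSeq windows were matched for 4 of the 6 members, and those of Sox9 and Sox10 are not used here.

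Around Sox9, the non-coding gene BC006965 begins 248 bp away on the opposite strand and was counted at 12 reads in WT and 13.3 in MD43, a difference of -0.33 ± 0.41, within its counting SE. Beside Sox10, Polr2f, a subunit of the RNA polymerases, had 4.90 log2 RPKM in MD43 and 4.74 in WT, and Micall1 had 2.17 and 2.42. The difference of Polr2f was 0.16 ± 0.04 and that of Micall1 -0.25 ± 0.05. A further row, 1700088E04Rik, lies 13655 bp from Sox10 on the same strand and had 1.71 log2 RPKM in MD43 and 2.08 in WT. Its difference was -0.38 ± 0.07. Micall1 and 1700088E04Rik thus had the sign of Sox10, and Polr2f had the opposite sign.

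Genes that SOX9 and the SoxD proteins act on in cartilage did not share a direction. Of 16 cartilage matrix genes, 8 had at least 10 reads in a genotype, 4 were higher and 4 lower in MD43, and 0 passed 2-fold. Their median difference was -0.05 (-0.29 over all 16, rows without reads included), against 0.01 over all rows that reached 10 reads. Col2a1, the main cartilage collagen, was the most abundant at 5.55 log2 RPKM in MD43 and 5.14 in WT, a difference of 0.40 ± 0.02 against a library spread of 0.20. Hapln1, which links hyaluronan to proteoglycans, was lower at 2.84 and 3.37 log2 RPKM, a difference of -0.53 ± 0.05. Col9a1 (-0.36 ± 0.09) and Col9a2 (0.33 ± 0.13), chains of the same collagen, had opposite signs. Acan, the large cartilage proteoglycan, was at 1.41 reads in WT and 5.29 in MD43, and no read was found for Matn1, Matn4, Snorc or Epyc. These genes were at or near the limit of detection in both genotypes.

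Of 13 skeletal regulators and partners of SOX9, 10 had at least 10 reads in a genotype, 5 higher and 5 lower, with a median of -0.10 (-0.23 over all 13 and -0.03 with a pseudocount of 1 RPKM). At least 2-fold lower were 2, Barx1 and Runx2. Barx1, a homeobox gene of the jaw region, was at 31.9 reads in WT and 18 in MD43, a difference of -1.30 ± 0.30. Runx2, the regulator of bone, was at 13.9 and 7.94 reads, a difference of -1.28 ± 0.45, and it passed the minimum of 10 reads through WT alone. Fgfr3, a growth factor receptor of cartilage and neural tissue, was better counted, with 1.53 log2 RPKM in MD43 and 2.36 in WT and a difference of -0.83 ± 0.06. The SOX9 partners Zfp219 (0.03 ± 0.03) and Arid5b (0.05 ± 0.07) differed by less than 2 counting SEs. Wwp2, which carries a microRNA gene controlled by SOX9, was at 0.25 ± 0.04.

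Most neural crest regulators were slightly lower in MD43. Of 12, 11 had at least 10 reads in a genotype, 8 were lower and 3 higher in MD43, 0 passed 2-fold, and the median was -0.17. Msx1 (5.11 log2 RPKM in MD43 and 5.28 in WT), Twist1 (4.72 and 5.11) and Zic1 (4.32 and 5.16) were the most abundant. Zic1, a gene of the dorsal neural tube and crest border, had the lowest difference at -0.84 ± 0.03. Twist1, a regulator of crest mesenchyme, was at -0.39 ± 0.05 and Snai2, a gene of crest migration, at -0.34 ± 0.11. Their library spreads were 0.20 and 0.26. Pax7 was higher at 0.39 ± 0.06. Foxd3, an early crest gene, had under 1 read in both genotypes.

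The genes of crest glia and pigment cells ranged from undetected to well above Sox9 and did not share 1 direction. Of 14 Schwann cell precursor and glia genes 13 were in the table and 6 had at least 10 reads in a genotype, 4 lower and 2 higher, with a median of -0.42 (-0.27 with a pseudocount of 1 RPKM). Erbb3, the neuregulin receptor of crest glia, was higher at 2.22 log2 RPKM in MD43 and 1.30 in WT, a difference of 0.92 ± 0.08, while Sox10 was lower. Fabp7, which neural progenitors also express, was lower at 4.80 and 5.69, a difference of -0.89 ± 0.05, and Pmp22 (-0.66 ± 0.16) and Ngfr (-0.49 ± 0.11) were lower too. Defining glial genes were scarce. Cdh19 was at 7.48 reads in WT and 5.29 in MD43, and no read was found for S100b or Gjc3. In bulk tissue fewer cells of a type and less RNA per cell cannot be told apart.

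Of 10 melanoblast and pigment genes, 5 had at least 10 reads in a genotype, and 3 of them (Mitf, Pmel and Ednrb) were at least 2-fold lower in MD43. The median was -1.01, and -0.41 with a pseudocount of 1 RPKM. Ednrb, the endothelin receptor of crest and pigment cells, was at 186 reads in WT and 107 in MD43, a difference of -1.27 ± 0.12. Sox10 had a difference of the same size, but on 10.8 reads in WT and 6.24 in MD43. With a pseudocount of 1 RPKM the Sox10 difference was -0.16, so nothing is read from the match. Pmel was at -1.36 ± 0.26, Mitf at -1.01 ± 0.16 and Dct at -0.96 ± 0.17, whereas Kit, which other cells of the face express as well, was at 0.22 ± 0.05. Mitf, Dct and Pmel are also expressed by the pigment layer of the eye, and Rax, a gene of the eye field and hypothalamus in the neural progenitor list, was at -2.17 ± 0.24 (79.4 reads in WT and 24.5 in MD43). Whether eye or brain tissue at the edge of the dissected piece takes part in the values of Sox10 or these genes was not tested.

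**Figure D4:**
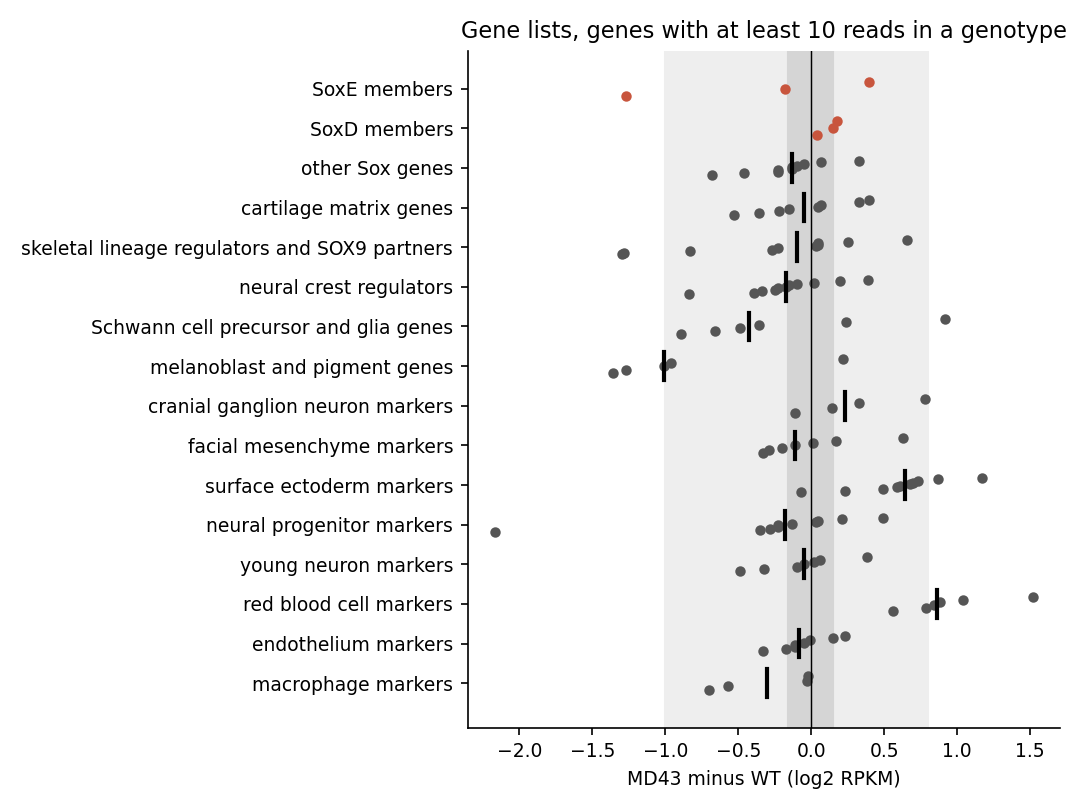
Difference between genotypes (MD43 minus WT, log2 RPKM, x axis) of the members (red) and of the genes of 14 lists (grey) with at least 10 reads in a genotype, with a black line at each list's median and the central 50% and 95% of all such rows shaded. The pigment list has its median at -1.01 (-0.41 with a pseudocount of 1 RPKM, not drawn), the surface ectoderm list at 0.65 and the red blood cell list at 0.86, and the cartilage list is centred near 0.

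Markers of some other cell types differed between the genotypes. The facial mesenchyme list was expressed in both, with all 7 markers over 10 reads, summed levels of 105 RPKM in MD43 and 96.5 in WT, and a median difference of -0.11. Pdgfra, a growth factor receptor of this mesenchyme, was at -0.33 ± 0.05. The surface ectoderm list summed to 193 RPKM in MD43 and 125 in WT, with 9 of 10 markers higher, a median of 0.65 and Cldn6 at 0.87 ± 0.05. The red blood cell list summed to 5817 and 3059 RPKM, with 6 of 6 measured markers higher and a median of 0.86. The neural progenitor list summed to 353 RPKM in both genotypes (median -0.18) and the young neuron list to 102 and 103 (median -0.05). The cranial ganglion list (5.68 and 4.4 RPKM, median 0.24), the endothelium list (16.6 and 17.5, median -0.08) and the macrophage list (3.65 and 4.05, median -0.30) were low in both, and no read was found for Pou4f2. The ganglion median was -0.11 over all listed genes. The macrophage median was -0.57 over all listed genes and -0.03 with a minimum of 50 reads. The part of these cell types in the differences of the Sox genes was not tested.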

How the data were processed

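The members and lists were chosen with earlier results of these data known. The authors trimmed the reads with Trim Galore 0.4.4, mapped them with HISAT2 2.0.5 to GRCm38.p6 and quantified them in SeqMonk, per the labels and the methods. The deposited values are log2 RPKM, which the authors scaled to transcript length and library size and merged into 1 column for each genotype (2 libraries). Sex chromosomes are not analysed here. The table's own fold change, mean and FDR columns were not used.

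The difference is the MD43 column minus the WT column, with no pseudocount. The limma test planned for values per library was not run, since the deposited table has none and values from the study's supplement are not used as results here. Rows were joined to GENCODE M21 (33101 of 33708 matched). The most frequent difference was taken to mark rows without reads, with a library at 0 counted as 0.9 reads, and the square of each value relative to these rows gave the product of both library counts. Of the mid-sized products, from 100 up, 98.9% in MD43 and 98.7% in WT were whole within 0.02. Pairs of whole numbers within 4-fold of each other were listed for each member (all pairs for Sox10), allowing a rounding of 4e-07 on the log2 scale. Rows with a single pair gave the depth ratio of the 2 libraries (1.53 in MD43, 1.49 in WT, from rows of 100 to 316 reads) and, by a folded normal fit, the SD of the log2 ratio of both libraries, from 0.23 to 0.55 in MD43 and 0.33 to 0.70 in WT by reads. The library spread is the root of the sum of the squares of both SDs, divided by 2. It assumes that a member varies like rows of its reads, and genes over 700 reads take the SD of the last range. Rows of 316 to 700 reads gave 1.54 and 1.41. This range was tried after the data were seen and after the implied depths had been compared with per-library values in the study's supplement, and it is kept as an alternative. Scripts were tested on simulated data (33101 rows).

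Named genes are the members, Smchd1, rows within 50 kb of a member and, per list, the 3 most abundant and up to 4 with the largest differences over 2 counting SEs. Not all of these are printed, and Sox14, Acan, Cdh19, Foxd3, Arid5b and genes without reads were named after their values were seen. Some genes are not reported here. Python 3.11.15, numpy 2.4.6, pandas 2.3.3 and scipy 1.17.1 were used.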

Additional observations from a re-analysis of the deposited data

How the results depend on the processing

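Of the 35 alternatives for the members and Smchd1 (pseudocounts, centring, and a correction for GC content and length that took up 1.4% of the variance), 33 moved the value by less than the library spread (Sox10, its counting SE). The exceptions were Sox10 at -0.74 with a pseudocount of 0.1 RPKM and -0.16 with 1 RPKM, since both exceed or approach its level. The count of members past 2-fold fell from 1 to 0 with a minimum of 50 reads or a pseudocount of 1 RPKM. Of the 42 alternatives for lists, 31 moved the median by less than the median spread of the list's genes divided by the root of their number. With all listed genes the medians were -0.29 (cartilage), -0.23 (skeletal regulators), -1.27 (pigment), -0.11 (cranial ganglion) and -0.57 (macrophage), where rows without reads are listed at -0.48. With a pseudocount of 1 RPKM they were -0.03 (skeletal regulators), -0.27 (glia), -0.41 (pigment), 0.53 (surface ectoderm) and -0.02 (macrophage). With 50 reads the macrophage median was -0.03. The depth ratio from the highest read range, up to 700 reads, added after the data were seen, changed the combinations without overlap, with the larger count in the deeper library, from 1 to 0 for Sox13 and left their number the same for the other 5 members. Over all assignments of counts to libraries, the number for Sox10 went from 1 to 2 of 32.

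No paired analysis was possible because the deposited table analysed here has a single merged column per genotype, and fits without 1 library were not run for the same reason. Values per library in the study's supplement were not used. Depth limits Sox10, whose counts in 1 MD43 library were at most 3, and the cartilage, glia and pigment genes with fewer than 10 reads.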
